A study of Arabidopsis thaliana with 111 samples.

Results

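The 80 Arabidopsis genes described here were those whose expression in germinating seeds was highest at the micropylar and chalazal ends of the endosperm relative to the rest of that tissue. They were taken from 21313 loci measured on expression arrays. For each locus the mean log2 value in the peripheral endosperm was subtracted from the mean in the micropylar and chalazal endosperm at 3 h and at 16 h after sowing. Loci were ranked by the higher of both differences, provided that both were above 0, and the 80 highest were kept. The difference between these endosperm regions at 3 h and 16 h is therefore a description of the choice, and no test is attached to it.

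The series followed dissected seeds of accession Col-0 during germination on 0.7% water agarose at 22 °C in continuous light. All groups shared that genotype and treatment, and no mutant or hormone treatment was used. The endosperm was divided into the micropylar and chalazal ends, which were pooled and are called MCE below, and the remainder, the peripheral endosperm or PE. The embryo was divided into the radicle with the embryonic axis, called RAD, and the cotyledons, called COT, and whole dry seeds were profiled as well. MCE and RAD were sampled at 1, 3, 7, 12, 16, 20 and 31 h, at 25 h with the testa intact or ruptured, and at 38 h with the endosperm intact or ruptured. COT arrays came from 3, 16 and 31 h, while those of PE came from 3 and 16 h only. Each of the 28 groups held 4 arrays, apart from PE at 3 h with 3. Below, a rise or fall at testa or endosperm rupture is the ruptured group compared with the intact group of the same age. These were separate seeds, so rupture itself and a further advance of germination cannot be told apart. Because both ends were pooled in MCE, a value there cannot be assigned to the micropylar or to the chalazal end. In bulk tissue, fewer cells of a type and less RNA per cell cannot be told apart.

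The endosperm of a mature Arabidopsis seed is a living cell layer around the embryo, under the dead testa. Its micropylar part covers the radicle tip and has to weaken before the radicle can emerge, which involves the remodelling of cell walls and is promoted by gibberellin and held back by abscisic acid. The chalazal part lies where the seed was attached to the mother plant, and the peripheral part covers the cotyledons and supplies lipid reserves. Testa rupture and endosperm rupture are separate events, and the radicle appears at the second.

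The scores of the 80 genes, in log2 units, ran from 3.90 for WRKY75 to 1.24 for AIR3, with a median of 1.56. The difference at 16 h set the score of 55 genes and the difference at 3 h that of 25. For 17 genes the difference was at least 1 at both times, for 18 at 3 h only and for 45 at 16 h only. Just inside the limit stood AT1G47540 with a score of 1.26, TBL22 and AT3G62040 with 1.25 each, FWA with 1.25 and AIR3 with 1.24. Just outside stood AT5G58150 with 1.24, AT3G20300 with 1.22, AT4G31000 and AT2G37670 with 1.21 each and PUB22 with 1.20, so the limit does not mark a gap. The condition of a positive difference at both times kept out 57 loci whose difference at one time was as large as that of a chosen gene. Among these, 51 were high at 16 h, and the largest, AT5G64100, named after its values were seen, had a difference of 4.39 at 16 h and -0.06 at 3 h.

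**Figure D1:**
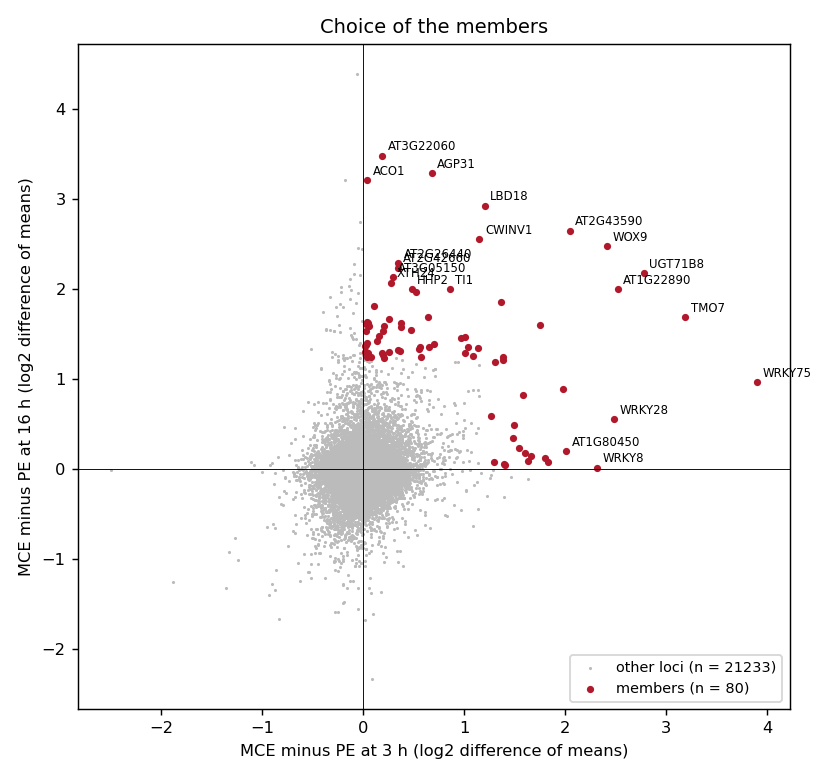
MCE minus PE in log2 units at 3 h (horizontal) and at 16 h (vertical) for the measured loci, with the 80 chosen genes marked. Most chosen genes lie high on one axis and near 0 on the other, with 17 at 1 or above on both.

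Sets of marker genes for seed tissues were used to check the dissection. Summed over 7 endosperm markers, log2 values lay between 59.5 and 60.7 in MCE and between 59.3 and 60.1 in PE at 16 h, against 38.0 to 39.7 in RAD. At 3 h the sums were 36.2 to 40.4 in MCE, 34.1 to 36.4 in PE and 34.2 to 35.1 in RAD. These markers therefore did not separate PE from RAD at 3 h. In the mean over the 9 other stages EXPA2 and GASA6 exceeded RAD in MCE by 7.86 and 7.99. LTP2 and NCED6 were lower in MCE, by -1.25 and -0.36. Of the 20 radicle and root markers, TMO7 is itself 1 of the 80 genes, so sums were taken over the other 19. They lay between 83.8 and 85.7 in MCE at 16 h, between 83.2 and 85.8 in PE and between 124 and 126 in RAD. At 3 h they were 74.5 to 76.9 in MCE, 74.1 to 77.2 in PE and 91.9 to 94.2 in RAD, so that MCE and PE overlapped at both times. Of all 20 markers, 7 were above 4.03 in MCE and in PE at each time, among them AIL6 at 9.30 and SCR at 8.15 in MCE at 16 h, while PLT1, PLT2, BBM, RHD6 and JKD were below it. That level is the 25th percentile of the highest group mean of each locus, and values under it are called dim here. The 17 seed coat markers summed to 70.1 to 74.3 in MCE and 66.9 to 69.6 in PE at 16 h, with TT4 at 7.11 and 5.86 while TT10 and BAN were dim. At 3 h they summed to 69.5 to 70.7 in MCE and 69.3 to 72.9 in PE, which overlapped. The part of the seed coat in the choice was not tested. Sums over 20 cotyledon markers overlapped between MCE and PE at both times, with 88.7 to 90.5 and 89.8 to 93.6 at 16 h. Among all arrays, 2 correlated best with a group other than their own: PE at 3 h replicate 2, nearest to MCE at 3 h, and MCE at 25 h with intact testa replicate 1, nearest to MCE at 20 h. Without that PE array, the same rule kept 68 of the 80 genes.

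The mean log2 level of the 80 genes in MCE was highest at 25 h with ruptured testa and lower at 38 h. It was 4.71 ± 0.02 in dry seeds, 5.28 ± 0.04 in MCE at 1 h and 5.79 ± 0.07 at 7 h (mean ± SD over arrays, n = 4 here and below). By 20 h the mean stood at 7.16 ± 0.06, and it was 7.33 ± 0.24 at 25 h with intact testa and 7.87 ± 0.03 with ruptured testa. At 38 h the means were 7.49 ± 0.02 with intact and 7.54 ± 0.04 with ruptured endosperm. In RAD the same genes averaged 4.50 ± 0.12 at 1 h and 6.30 ± 0.02 at 38 h with ruptured endosperm, and they were lower than in MCE at every stage. COT stayed between 4.61 ± 0.03 at 3 h and 5.06 ± 0.06 at 31 h. PE rose from 4.78 ± 0.07 at 3 h (n = 3) to 5.62 ± 0.11 at 16 h. The 25 genes scored at 3 h averaged 5.71 in MCE at 1 h, against 4.37 in RAD, and the 55 scored at 16 h averaged 5.09 and 4.57. A higher mean in MCE is favoured by the choice, and this contrast at 1 h by the split on scoring time.

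For 64 of the 80 genes the highest of all 28 group means was an MCE group, a share that the choice favours, against 32.7% of all loci. RAD held the highest mean for 12 genes, COT for 3, dry seed for 1 and PE for none. Within MCE the highest stage was mostly late: 38 h with ruptured endosperm for 20 genes, 25 h with ruptured testa for 13 and 25 h with intact testa for 10. The earliest stages, 1 and 3 h, were highest for 12 genes together. RAD was dim at every stage for 14 genes and COT for 29. A symbol was found in the reference for 49 genes, and the other 31 go by their locus name.

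**Figure D2:**
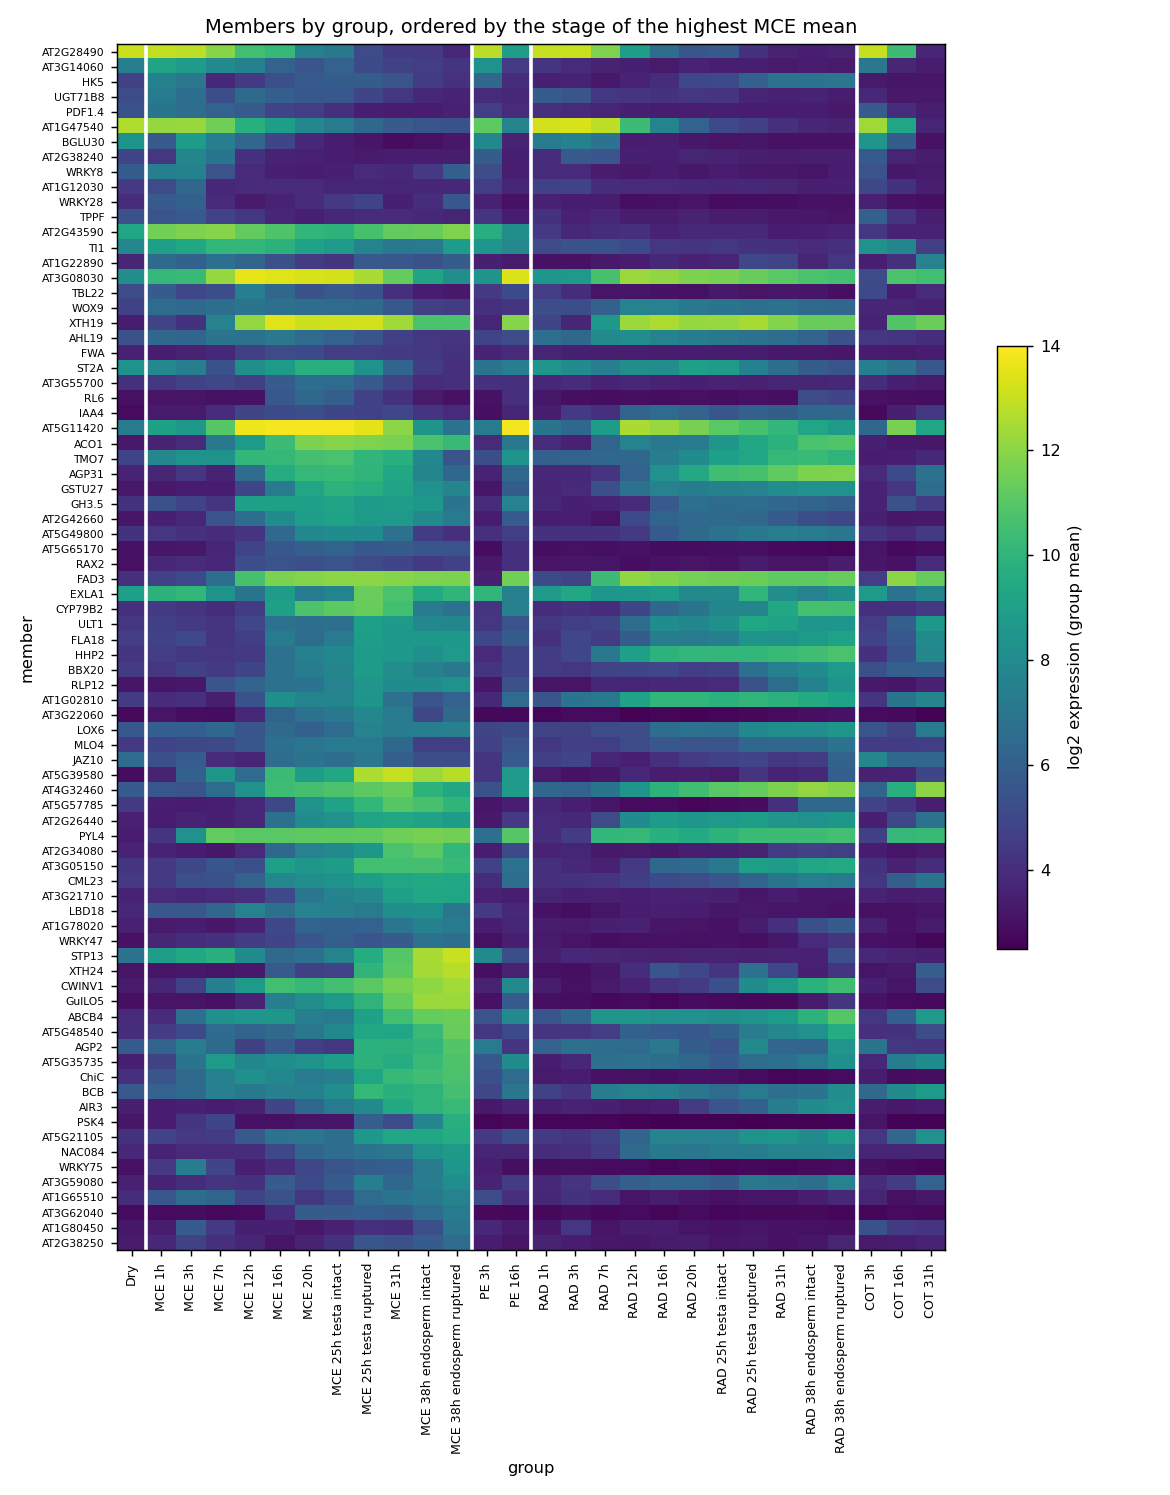
Log2 group means of the 80 genes (rows) in the 28 groups (columns). For 64 rows the highest mean is in an MCE column, most often at 38 h with ruptured endosperm (20 rows).

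WRKY transcription factors bind W-box elements and are best known from defence and senescence. There were 4 among the 80 genes, of 58 measured with a WRKY symbol, a family count made after the values were seen. WRKY75, the first in the ranking, measured 7.43, 7.37, 7.53 and 7.14 in MCE at 3 h and 3.28, 3.24 and 3.88 in PE. Its level fell to 3.53 ± 0.47 at 12 h, and it then reached 8.75, 8.26, 8.56 and 8.60 in MCE at 38 h with ruptured endosperm. RAD stayed dim at all stages, from 2.87 ± 0.17 at 1 h to 2.83 ± 0.03 at 38 h with ruptured endosperm, and so did COT. The MCE and RAD replicates of WRKY75 did not overlap at 1 h, where the difference was 1.55 ± 0.21 (estimate ± SE, adjusted p = 2.92e-09, limma), nor at 38 h with ruptured endosperm, where it was 5.71 ± 0.21 (adjusted p = 5.69e-43). At 12 h the difference of 0.71 ± 0.21 did not reach the required size of 1. WRKY75 also rose at endosperm rupture in MCE, by 1.27 ± 0.21 (adjusted p = 4.44e-06).

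WRKY28 and WRKY8, both studied in defence signalling, were highest in MCE in the first hours. WRKY8 measured 5.63, 6.16, 5.63 and 5.89 in dry seeds and 7.71, 7.39, 7.29 and 7.51 in MCE at 1 h, a rise of 1.65 ± 0.18 (adjusted p = 1.6e-12). In RAD at 1 h it measured 4.10, 3.85, 4.23 and 3.49, a fall from the dry seed of -1.91 ± 0.18 (adjusted p = 2.27e-15). Its level in MCE was 3.41 ± 0.18 at 20 h and 5.93 ± 0.12 at 38 h with ruptured endosperm, with a rise at rupture of 1.50 ± 0.18 (adjusted p = 1.99e-10). WRKY28 followed with 5.79 ± 0.11 at 1 h, 3.34 ± 0.12 at 12 h and 5.60 ± 0.97 at 38 h with ruptured endosperm. For WRKY28 the rise at endosperm rupture was 1.58 ± 0.20 (adjusted p = 9.35e-10), although its 4 ruptured arrays, 4.29, 5.82, 5.68 and 6.62, overlapped the intact ones, 3.87, 3.90, 3.99 and 4.32. WRKY47, named after its values were seen, had no such dip: its MCE mean was 3.72 ± 0.38 at 1 h, 5.59 ± 0.13 at 20 h and 6.80 ± 0.25 at 38 h with intact endosperm, while RAD was above the dim level only at 38 h with ruptured endosperm.

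LBD18, a LOB-domain factor known from lateral root emergence, was higher in MCE than in RAD throughout the tested stages. It measured 3.49, 3.49, 4.22 and 3.93 in dry seeds and 5.96, 5.73, 5.11 and 5.74 in MCE at 1 h, against 2.88, 3.03, 3.09 and 3.31 in RAD. Its MCE mean was 7.62 ± 0.24 at 12 h and 8.27 ± 0.15 at 38 h with intact endosperm, and its RAD means stayed dim at all stages. The difference from RAD was called at all 9 tested stages, from 2.56 ± 0.15 at 1 h to 5.16 ± 0.15 at 38 h with intact endosperm (adjusted p = 8.46e-52). At endosperm rupture LBD18 fell in MCE from 8.30, 8.26, 8.44 and 8.08 to 6.96, 6.93, 7.32 and 6.80, by -1.27 ± 0.15 (adjusted p = 7.03e-11).

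TMO7, a small bHLH protein that acts downstream of auxin in the embryonic root and is listed as BS1 in RefSeq, crossed over between tissues. In MCE it stood at 7.64, 8.05, 7.57 and 7.94 at 1 h, compared with 5.85, 5.84, 6.29 and 6.21 in RAD and 5.58, 4.83, 4.49 and 4.51 in dry seeds. By 38 h with ruptured endosperm it was down to 4.94, 5.53, 6.01 and 5.48 in MCE and at 9.70 to 10.09 in RAD. The groups did not overlap at either stage, and the difference went from 1.75 ± 0.18 at 1 h (adjusted p = 1.37e-14) to -4.48 ± 0.18 (adjusted p = 2.34e-41). TMO7 was 1 of the 20 measured radicle markers, and it was the only one among the 80 genes.

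WOX9, a homeobox factor of embryo and meristem growth listed as HB-3, measured 6.57 ± 0.18 in MCE and 5.21 ± 0.21 in RAD at 1 h. It was below RAD by 38 h with ruptured endosperm, at 4.49 ± 0.24 against 6.29 ± 0.15. The differences were 1.37 ± 0.15 (adjusted p = 1.98e-13) and -1.80 ± 0.15 (adjusted p = 2.1e-20). RL6, a small RADIALIS-like SANT/MYB protein, appeared in MCE between 16 and 31 h. It was dim at 12 h, reached 6.27, 6.43, 6.24 and 6.47 at 20 h and was back at 3.25, 3.14, 2.99 and 2.86 at 38 h with ruptured endosperm. RL6 in RAD was dim until 31 h and stood at 5.12, 5.53, 4.82 and 5.01 at 38 h with intact endosperm, above all MCE arrays of that stage. At testa rupture RL6 fell in MCE by -1.24 ± 0.16 (adjusted p = 5.82e-10).

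BBX20, a B-box factor of light and brassinosteroid signalling listed as BZS1, measured 7.31 ± 0.40 in MCE and 4.61 ± 0.22 in RAD at 20 h, a difference of 2.69 ± 0.19 (adjusted p = 2.3e-23). At 38 h with ruptured endosperm the order was turned, with 7.10 ± 0.26 in MCE and 8.73 ± 0.16 in RAD (-1.63 ± 0.19, adjusted p = 1.24e-12). AHL19, an AT-hook protein, and NAC084, a NAC-domain factor, had higher means in RAD than in MCE at most stages. AHL19 in MCE was below RAD by -1.92 ± 0.14 at 31 h (adjusted p = 1.8e-22). NAC084 was below RAD by -2.51 ± 0.17 at 12 h (adjusted p = 1.2e-24) and reached 8.73 ± 0.21 in MCE at 38 h with ruptured endosperm. ULT1, a trithorax-group regulator known from floral meristems, rose at testa rupture in MCE from 6.20, 7.15, 7.12 and 6.55 to 8.86, 8.97, 9.05 and 9.04, by 2.22 ± 0.18 (adjusted p = 6.04e-19). FWA, a homeodomain gene whose maternal allele is expressed in the developing endosperm, stayed low: its MCE mean was highest at 16 h, at 5.14 ± 0.06, against 3.90 ± 0.10 in PE and 3.44 ± 0.12 in RAD. At 20 h FWA was above RAD by 1.68 ± 0.15 (adjusted p = 2.24e-18). FWA was the only 1 of 20 measured genes of the developing endosperm list among the 80.

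XTH24, which cuts and rejoins xyloglucan chains in the wall, measured 3.62, 5.40, 5.23 and 5.10 in MCE at 25 h with intact testa and 10.36, 10.10, 9.59 and 10.03 with ruptured testa. These groups did not overlap, and the rise was 5.19 ± 0.22 (adjusted p = 1.75e-37). In RAD the rise of XTH24 was 2.52 ± 0.22 (adjusted p = 1.18e-16), from 4.39, 4.25, 4.23 and 4.25 to 6.24, 6.82, 7.05 and 7.09. MCE went on to 12.76 ± 0.13 at 38 h with ruptured endosperm, while RAD was at 4.28 ± 0.47, a difference of 8.48 ± 0.22 (adjusted p = 4.87e-56).

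EXLA1, an expansin-like protein, was already high in dry seeds, at 9.03, 9.23, 8.78 and 8.91. In MCE at 25 h it measured 5.79, 8.20, 8.59 and 8.12 with intact and 11.46, 11.09, 11.53 and 11.42 with ruptured testa. That rise was 3.70 ± 0.38 (adjusted p = 1.34e-13, limma), and in RAD it was 2.16 ± 0.38 (adjusted p = 1.04e-05). AGP2, an arabinogalactan protein of the cell surface, went from 3.47, 4.59, 4.49 and 4.85 to 9.85, 9.73, 9.71 and 10.12 in MCE. That rise of 5.50 ± 0.26 was the largest of the 80 genes at testa rupture in MCE (adjusted p = 5.2e-34). In RAD AGP2 rose by 2.49 ± 0.26 (adjusted p = 5.35e-13). At 25 h with intact testa AGP2 was lower in MCE than in RAD, by -1.18 ± 0.26 (adjusted p = 4.49e-05, limma). With ruptured testa it was higher, by 1.84 ± 0.26 (adjusted p = 1.02e-09). The first of these differences was under the required size without replicate 1 of MCE (-0.89) or of RAD (-0.93) at 25 h with intact testa, and with array weights (-0.91).

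**Figure D3:**
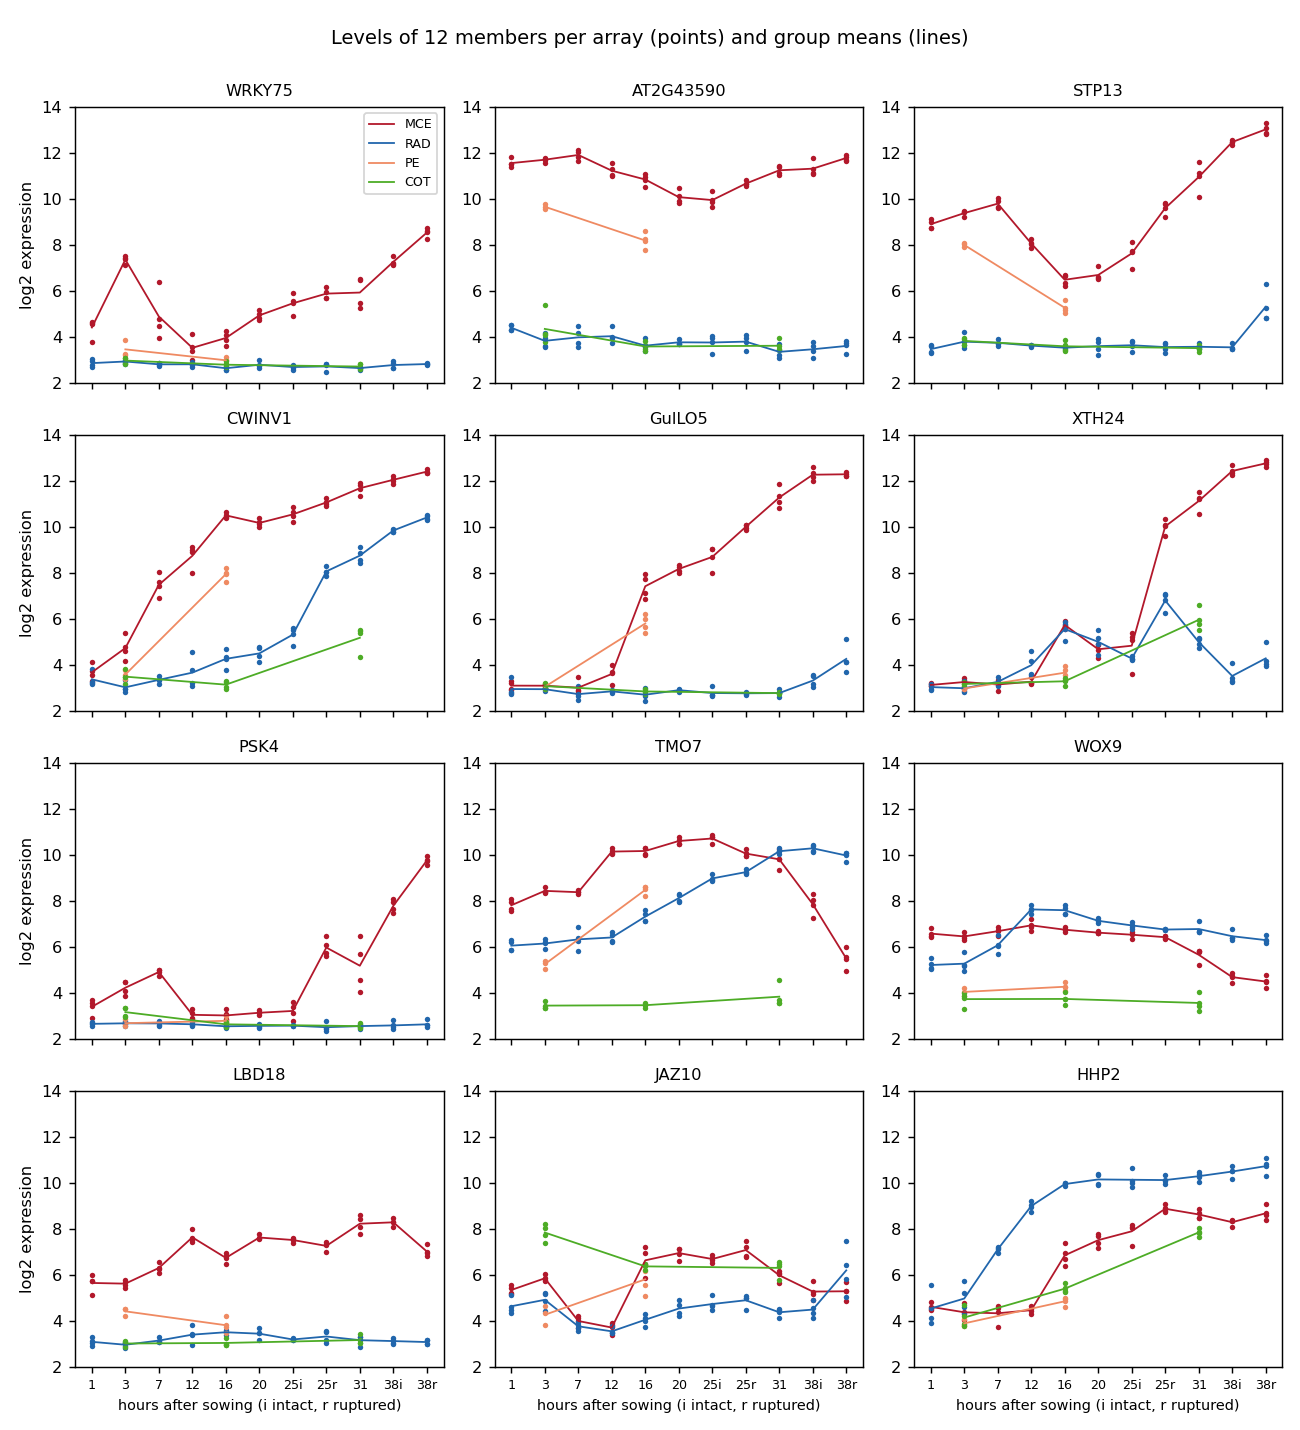
Log2 values of selected genes against the stage in MCE, RAD, PE and COT; points are arrays, lines join group means, and i and r mark intact and ruptured testa at 25 h and endosperm at 38 h. XTH24 and PSK4 step up at testa rupture in MCE, TMO7 falls in MCE after 25 h, and STP13 dips at 16 to 20 h before its late rise.

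XTH19, the neighbour of XTH24 in the genome with 1 gene between them, did not share its pattern. XTH19 measured 4.18 ± 0.60 in MCE at 3 h and 13.45 ± 0.15 at 16 h, and RAD had 3.76 ± 0.38 and 12.56 ± 0.22 at the same times. No difference between MCE and RAD was called at any of the 9 stages, and the mean difference was 0.08 ± 0.15. Of the 33 measured xyloglucan genes, 12 rose and 0 fell at testa rupture in MCE (all loci 2.83% and 0.54%), with a median change of 0.25 against -0.04 for all loci. By limma 1 of them was lower at an unadjusted p under 0.05. XTH24 was 1 of the 12.

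AGP31, a second arabinogalactan protein, had the largest rise between 7 and 20 h in MCE except for 1 gene. It measured 3.54, 3.55, 3.52 and 3.77 at 7 h and 10.35, 10.19, 10.03 and 10.05 at 20 h, a rise of 6.56 ± 0.25 (adjusted p = 1.37e-41). In RAD it rose by 5.19 ± 0.25 in the same interval (adjusted p = 5.14e-34) and went on to 11.78, 11.55, 11.96 and 11.77 at 38 h with ruptured endosperm. MCE by then was down at 5.76, 6.26, 6.53 and 6.94, and the difference was -5.39 ± 0.25 (adjusted p = 1.21e-35). PME12, a pectin methylesterase that the reference lists under AT2G26440, was early in RAD and late in MCE: at 12 h it measured 3.77 ± 0.27 in MCE and 8.08 ± 0.31 in RAD. That difference was -4.31 ± 0.18 (adjusted p = 1.43e-39), and at 20 h the -0.53 ± 0.18 between both tissues was below the required size. TBL22, a relative of the xyloglucan acetyltransferase AXY4, was highest in MCE at 12 h, at 7.17, 7.54, 7.73 and 7.49, while RAD measured 3.20, 3.09, 3.32 and 2.96. The difference of 4.34 ± 0.17 at 12 h (adjusted p = 2.65e-41) was no longer called at 31 h. AIR3, a subtilisin-like protease first found in auxin-treated roots, rose in both tissues, from 3.55 ± 0.11 at 12 h to 10.24 ± 0.19 at 38 h with ruptured endosperm in MCE and from 3.32 ± 0.07 to 8.33 ± 0.16 in RAD. Its lead in MCE was 1.89 ± 0.16 at 20 h (adjusted p = 2.32e-18).

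STP13, a hexose transporter of the plasma membrane listed as MSS1, measured 6.71, 6.88, 7.03 and 6.86 in dry seeds. It was at 9.14, 9.0, 8.74 and 8.75 in MCE and at 3.61, 3.36, 3.64 and 3.30 in RAD at 1 h, so that the dry seed value lay between both. The changes from the dry seed were 2.04 ± 0.19 in MCE (adjusted p = 6.54e-16) and -3.40 ± 0.19 in RAD (adjusted p = 3.96e-29). In MCE STP13 passed through 6.49 ± 0.24 at 16 h and 10.96 ± 0.64 at 31 h, and reached 13.31, 12.83, 13.08 and 12.89 at 38 h with ruptured endosperm. It was above RAD at all 9 tested stages, by 3.09 ± 0.19 at 20 h (adjusted p = 1.23e-27) and by 8.92 ± 0.19 at 38 h with intact endosperm (adjusted p = 6.22e-63). RAD was dim until endosperm rupture, when STP13 rose there to 4.84, 6.32, 5.27 and 4.84, by 1.76 ± 0.19 (adjusted p = 9.84e-13). Of the 63 measured genes of nutrient transport, 21 were higher and 3 lower in MCE in the mean over the 9 stages (all loci 8.74% and 9.68%), with a median of 0.22, and STP13 was the only one among the 80.

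CWINV1, the cell wall invertase that splits sucrose outside the cell and is listed as ATBFRUCT1, was dim in dry seeds. In MCE it measured 3.31, 4.14, 3.55 and 3.71 at 1 h and 8.02, 6.89, 7.60 and 7.43 at 7 h, and RAD at 7 h had 3.53, 3.35, 3.34 and 3.19. The difference between tissues at 7 h was 4.13 ± 0.22 (adjusted p = 3.85e-31). At testa rupture CWINV1 rose in RAD, from 5.35, 5.52, 5.60 and 4.80 to 7.87, 8.30, 8.05 and 8.04, by 2.75 ± 0.22 (adjusted p = 2.29e-18). The change in MCE of 0.52 ± 0.22 was below the required size. By 38 h with ruptured endosperm, CWINV1 stood at 12.40 ± 0.09 in MCE and 10.41 ± 0.12 in RAD.

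TPPF, a trehalose-6-phosphate phosphatase, was higher early and lower later. It measured 5.71 ± 0.28 in MCE at 3 h and 3.49 ± 0.13 at 20 h, and COT was at 6.04 ± 0.18 at 3 h. The lead over RAD at 7 h, 1.05 ± 0.19 (adjusted p = 2.34e-06), was 0.63 without MCE replicate 2, under the required size. It was also under that size without RAD replicate 1 (0.99) or 2 (0.96). BGLU30, a beta-glucosidase induced by darkness and sugar starvation and listed as DIN2, fell from 8.60, 8.50, 8.33 and 8.19 in dry seeds to 5.89, 5.48, 5.73 and 5.66 in MCE at 1 h. It was back at 9.08, 9.04, 8.69 and 8.62 in MCE at 3 h. The fall to 1 h was -2.72 ± 0.16 (adjusted p = 8.43e-27), and that from 7 to 20 h was -3.66 ± 0.16 (adjusted p = 1.57e-37).

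Hormone genes took several different courses. ACO1, an ACC oxidase that makes ethylene, was dim in dry seeds and rose to 12.13, 11.69, 11.58 and 11.59 in MCE at 20 h, when RAD was at 6.82, 7.15, 7.39 and 7.75. The difference of 4.47 ± 0.31 (adjusted p = 8.3e-24) was gone at 38 h with intact endosperm, when both tissues were at 10.68 ± 0.23 and 10.69 ± 0.26. COT was dim at 31 h, with 3.25 ± 0.14, and MCE was above it by 8.43 ± 0.31 (adjusted p = 1.84e-43).

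GH3.5, which joins amino acids to auxin and is listed as WES1, measured 4.56, 3.76, 4.24 and 4.41 in MCE at 7 h and 8.97, 8.47, 9.35 and 9.15 at 12 h. RAD at 12 h was at 3.93, 3.73, 4.06 and 3.94, and the difference was 5.07 ± 0.17 (adjusted p = 1.77e-45). At endosperm rupture GH3.5 fell in MCE by -1.72 ± 0.17 (adjusted p = 1.36e-13). ABCB4, an auxin transporter, was below RAD at 1 h by -1.54 ± 0.18 (adjusted p = 4.15e-12) and above it at 31 h by 1.74 ± 0.18 (adjusted p = 2.69e-15). At testa rupture ABCB4 rose in MCE by 1.88 ± 0.18 (adjusted p = 1.62e-15). IAA4, an auxin-responsive repressor listed as ATAUX2-11, was lower in MCE than in RAD by -1.25 ± 0.21 at 25 h with ruptured testa (adjusted p = 1.02e-07).

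PYL4, an abscisic acid receptor, rose more than any other of the 80 genes between 1 and 7 h. In MCE it measured 4.71, 4.66, 3.66 and 4.01 at 1 h and 11.16, 11.02, 11.31 and 11.46 at 7 h, and in RAD 3.82, 3.63, 3.12 and 5.42 and 10.38, 10.20, 9.35 and 10.50. The rises were 6.98 ± 0.23 in MCE (adjusted p = 2.9e-46) and 6.11 ± 0.23 in RAD (adjusted p = 9.57e-42). PYL4 had a place among the 80 through 3 h alone, with 8.34 ± 0.43 in MCE and 6.71 ± 0.82 in PE (n = 3), and at 16 h the regions were at 11.06 ± 0.11 and 10.97 ± 0.12. It was the only 1 of 35 measured abscisic acid genes among the 80. Of these 35 genes, 4 rose and 15 fell in MCE between 7 and 20 h (all loci 11.7% and 10.3%), with a median of -0.62 against -0.05 for all loci.

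HK5, a histidine kinase, measured 7.75, 7.58, 7.52 and 7.34 in MCE at 1 h and 3.49, 3.77, 3.24 and 3.46 in RAD, on both sides of the dry seed with 4.57, 4.77, 5.08 and 4.59. The tissues differed by 4.06 ± 0.17 (adjusted p = 1.29e-38). At 7 h HK5 was down to 3.66, 3.74, 4.0 and 3.97 in MCE, a fall of -3.71 ± 0.17 (adjusted p = 4.71e-36), and at 38 h with ruptured endosperm it was lower in MCE than in RAD by -2.88 ± 0.17 (adjusted p = 5.35e-29). PSK4, a precursor of the growth-promoting peptide phytosulfokine, was dim in RAD and COT throughout. In MCE it rose at testa rupture from 2.76, 3.40, 3.10 and 3.58 to 5.71, 6.08, 5.59 and 6.47 and at endosperm rupture from 7.45, 8.07, 7.64 and 7.96 to 9.95, 9.53, 9.79 and 9.72. The steps were 2.76 ± 0.19 (adjusted p = 3.01e-22) and 1.97 ± 0.19 (adjusted p = 6.05e-14), and no group overlapped its partner.

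There were 3 jasmonate genes, of 25 measured. JAZ10, a repressor of jasmonate responses, measured 6.52 ± 0.10 in dry seeds and 3.70 ± 0.22 in MCE at 12 h, and was back at 6.93 ± 0.24 at 20 h, a rise from 7 h of 2.95 ± 0.24 (adjusted p = 9.72e-20). COT at 3 h was higher than either endosperm region, at 8.19, 7.39, 8.03 and 7.70, and above RAD by 2.92 ± 0.24 (adjusted p = 1.95e-18). LOX6, a lipoxygenase at the start of jasmonate synthesis, was above RAD at 1 h by 1.08 ± 0.15 (adjusted p = 4.05e-09) and below it at 38 h with ruptured endosperm by -1.05 ± 0.15 (adjusted p = 1.41e-09). That last difference was -0.98, under the required size, after scaling and also without RAD replicate 2. ST2A, a sulfotransferase that inactivates a jasmonate derivative, reached 9.74 ± 0.11 in MCE at 20 h and fell at testa rupture by -1.33 ± 0.21 (adjusted p = 2.4e-07). Of the 25 jasmonate genes, 9 rose and 3 fell in MCE between 7 and 20 h (all loci 11.7% and 10.3%), with a median of 0.14.

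Among genes of defence, ChiC, a class V chitinase, was above RAD at all 9 tested stages. It measured 5.68, 5.55, 5.68 and 5.30 in MCE at 1 h and 10.53, 10.80, 10.72 and 10.79 at 38 h with ruptured endosperm, while RAD was dim at all stages. The differences from RAD ran from 2.23 ± 0.16 at 1 h (adjusted p = 4.13e-23) to 7.85 ± 0.16 at 38 h with ruptured endosperm (adjusted p = 6.51e-65). TI1, a trypsin inhibitor, was present in dry seeds at 7.91, 7.73, 7.80 and 7.93. It stood at 9.27, 9.16, 8.75 and 8.98 in MCE and 5.33, 4.84, 5.19 and 5.10 in RAD at 1 h, and COT at 3 h measured 8.42, 8.41, 8.31 and 8.27. TI1 was above RAD by 5.06 ± 0.20 at 12 h (adjusted p = 1.71e-40), and at endosperm rupture it rose in MCE by 1.69 ± 0.20 (adjusted p = 9.36e-11).

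PDF1.4, of the plant defensin family, was an early gene, with 7.07, 6.49, 7.45 and 6.82 in MCE at 1 h and 3.38 ± 0.11 at 31 h. It was above RAD by 2.87 ± 0.17 at 1 h (adjusted p = 1.15e-27), and from 25 h on no difference was called. Of 28 measured defence genes, 7 were higher and 2 lower in MCE in the mean over the 9 stages (all loci 8.74% and 9.68%), with a median of 0.02. PDF1.4 was the only one of them among the 80. UGT71B8, a UDP-glucosyltransferase, was highest at 1 h, at 7.26 ± 0.26 in MCE and 5.87 ± 0.34 in RAD, and fell in MCE by -1.99 ± 0.15 to 7 h (adjusted p = 8.12e-22).

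CYP79B2, which makes the tryptophan-derived precursor of indole glucosinolates and camalexin, had the largest rise of the 80 genes between 7 and 20 h in MCE. It measured 4.42, 3.68, 3.97 and 3.97 at 7 h and 10.92, 11.12, 10.49 and 10.71 at 20 h, a rise of 6.80 ± 0.29 (adjusted p = 1.01e-38), and in RAD the rise was 2.93 ± 0.29 (adjusted p = 8.6e-16). By 38 h with intact endosperm MCE was at 6.99, 8.14, 7.28 and 6.80 and RAD at 10.54, 10.82, 10.69 and 10.63, turned from the order at 20 h, with a difference of -3.37 ± 0.29 (adjusted p = 4.45e-19). The MCE and PE replicates of CYP79B2 overlapped at 3 h and at 16 h, where the mean differences were 0.03 and 1.54. Of 29 measured glucosinolate genes, 15 rose and 2 fell in MCE between 7 and 20 h (all loci 11.7% and 10.3%), with a median of 1.02. In RAD 14 rose and 1 fell (all loci 11.8% and 8.94%). RLP12, a receptor-like protein, rose between 1 and 7 h in MCE by 2.38 ± 0.27 (adjusted p = 7.43e-13) and stood at 8.41 ± 0.24 in MCE and 8.43 ± 0.43 in RAD at 38 h with ruptured endosperm. BCB, a blue copper protein, rose at testa rupture in MCE by 2.02 ± 0.34 (adjusted p = 1.7e-06), and by 1.28 without replicate 1 of the intact group.

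Further enzymes and membrane proteins included GulLO5, of the L-gulonolactone oxidase family, which was dim in every tissue until 12 h. In MCE it then measured 8.34, 8.25, 8.10 and 8.0 at 20 h and 12.22, 12.31, 12.21 and 12.40 at 38 h with ruptured endosperm, against 2.96, 2.91, 2.82 and 2.92 and 3.68, 5.12, 4.12 and 4.13 in RAD. The difference of 8.95 ± 0.19 at 38 h with intact endosperm was the largest of the 80 genes at that stage (adjusted p = 2.19e-63). FAD3, the desaturase that makes linolenic acid, was at 7.16, 5.97, 6.46 and 6.98 in MCE and 10.69, 10.43, 9.66 and 10.72 in RAD at 7 h. MCE was thus behind RAD by -3.73 ± 0.32 (adjusted p = 2.48e-18), and at 20 h the tissues stood at 11.86 ± 0.10 and 11.59 ± 0.07. FAD3 owed its place to 3 h, with 5.10 ± 0.39 in MCE and 3.50 ± 0.43 in PE, and it was at 4.61 ± 0.45 in COT. GSTU27, a glutathione S-transferase, was below RAD at 7 h by -1.92 ± 0.19 (adjusted p = 5.55e-15) and above it at 25 h with intact testa by 2.38 ± 0.19 (adjusted p = 1.95e-20). HHP2, a heptahelical membrane protein, was lower in MCE than in RAD at every tested stage except 1 h, by -4.52 ± 0.21 at 12 h (adjusted p = 7.34e-35).

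Some of the largest differences belonged to loci without a symbol in the reference, to which no role is given here. AT2G43590 measured 8.96, 9.20, 9.42 and 9.41 in dry seeds, 11.54, 11.81, 11.38 and 11.52 in MCE at 1 h and 4.29, 4.51, 4.30 and 4.53 in RAD. In MCE it changed by -1.83 ± 0.19 from 7 to 20 h (adjusted p = 1.64e-14) and by 1.17 ± 0.19 from 20 to 31 h (adjusted p = 1.73e-07). MCE was at 11.78 ± 0.12 at 38 h with ruptured endosperm, and RAD was dim from 16 h on. It was above RAD at all 9 stages, by 7.16 ± 0.19 at 1 h and 8.17 ± 0.19 at 38 h with ruptured endosperm (adjusted p = 5.49e-59). AT5G39580 was dim in dry seeds and measured 12.97, 12.86, 13.02 and 13.01 in MCE at 31 h, against 3.06, 4.11, 4.16 and 3.12 in RAD. That difference of 9.35 ± 0.32 was the largest of the 80 genes in any of the 9 stages (adjusted p = 2.7e-46). At testa rupture AT5G39580 rose in MCE by 3.23 ± 0.32 (adjusted p = 1.21e-14), and at endosperm rupture it rose in RAD by 2.17 ± 0.32 (adjusted p = 6.89e-08).

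AT3G22060 was near the floor until 7 h and measured 8.0, 7.60, 8.01 and 7.71 in MCE at 25 h with ruptured testa, while RAD, COT and PE were dim throughout. Its lead over RAD was then 5.10 ± 0.16 (adjusted p = 3.43e-48). In MCE AT5G57785 measured 3.79 ± 0.38 at 12 h, 5.0 ± 1.14 at 16 h and 8.42 ± 0.60 at 20 h, and PE was at 3.47 ± 0.34 at 16 h. AT1G02810 was the only gene lower in MCE than in RAD at all 9 stages, by -1.56 ± 0.27 at 1 h and -4.04 ± 0.27 at 38 h with intact endosperm (adjusted p = 1.97e-25). AT2G28490 was the only gene highest in the dry seed, at 13.14, 13.12, 13.02 and 13.06, and fell in MCE to 3.77 ± 0.23 at 38 h with ruptured endosperm; at 16 h it was at 9.94, 9.72, 10.64 and 10.56 in MCE and 8.31, 8.69, 9.21 and 9.48 in PE. AT2G38240 and AT2G38250, which are adjacent in the genome, followed separate courses: AT2G38240 was highest in MCE at 3 h, at 7.71 ± 0.11, and AT2G38250, named after its values were seen, at 38 h with ruptured endosperm, at 6.53 ± 0.17.

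Over all 80 genes, MCE and RAD were compared at the 9 stages that the choice did not use, where a call needed an adjusted p under 0.05 and a log2 difference of 1 or more in either direction. At 1 h 25 genes were higher and 4 lower in MCE, against 2.89% and 2.59% of all loci. At 7 h the counts were 31 higher and 8 lower (all loci 4.65% and 4.07%), and at 12 h 28 and 13 (5.52% and 5.65%). At 20 h they were 47 and 5 (9.75% and 10.5%), at 25 h with intact testa 49 and 6 (11% and 11.9%) and with ruptured testa 48 and 4 (12.6% and 13.6%). At 31 h they were 45 and 6 (14.2% and 16.2%), at 38 h with intact endosperm 41 and 15 (14.1% and 17.1%) and with ruptured endosperm 36 and 18 (14.1% and 17.6%). In the mean over the 9 stages 44 were higher and 5 lower (8.74% and 9.68%), with a median difference of 1.11 over the 80 genes and -0.01 over all loci. The share of the 80 genes that was higher in MCE was above the background at each stage. Choosing genes with MCE above PE favours such an excess, here and in the later comparisons of MCE with COT or dry seed. All loci also include those dim in every group. The share of the 80 genes that was lower in MCE was also above the background at 1, 7 and 12 h, and below it from 20 to 31 h. At 38 h it was 18.8% with intact and 22.5% with ruptured endosperm, against 17.1% and 17.6% of all loci.

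**Figure D4:**
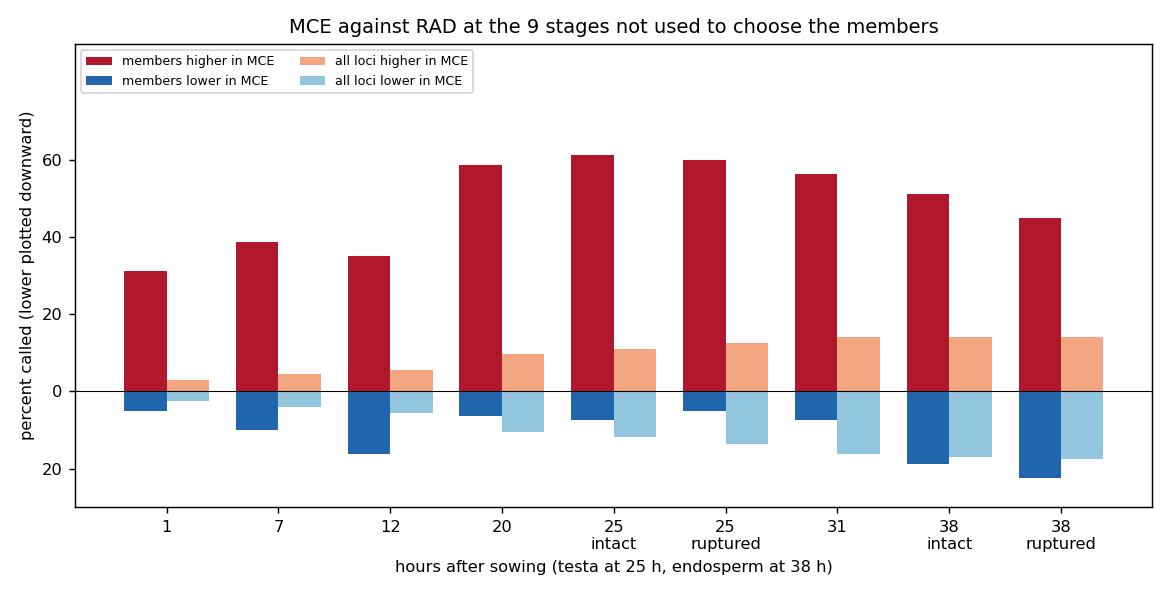
Percentage of the 80 genes and of all 21313 loci called higher (up) or lower (down) in MCE than in RAD at the 9 tested stages. The share higher is largest at 25 h with intact testa, with 49 of the 80 genes.

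At all 9 stages 6 genes were higher in MCE, 7.5% of the 80 against 0.802% of all loci, which the choice also favours. They were LBD18, STP13, TI1, ChiC, AT2G43590 and AT1G65510, the last named after its values were seen. A further 18 genes were higher at some stages and lower at others, 22.5% against 3.17% of all loci, among them TMO7, WOX9, AGP2, HK5 and CYP79B2. In all, 48 genes were higher at 1 or more stages and lower at none, and 12 were lower at 1 or more and higher at none. XTH19 and AT1G12030 were called at no stage.

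Changes within each tissue were compared over the same intervals, and the comparisons share arrays. From 1 to 7 h 21 genes rose and 10 fell in MCE (all loci 10.6% and 7.38%), and 16 rose and 4 fell in RAD (9.66% and 7.3%). With arrays scaled to a common trimmed mean, the median change of all loci in this interval was -0.30 rather than -0.06 for MCE, and -0.21 rather than -0.03 for RAD. The share of called loci that were higher was 42.5% rather than 58.9% for MCE, and 44.1% rather than 56.9% for RAD. From 7 to 20 h 46 genes rose and 17 fell in MCE (11.7% and 10.3%), and 31 rose and 5 fell in RAD (11.8% and 8.94%). From 20 to 31 h 31 rose and 12 fell in MCE (7.22% and 7.61%), and 20 and 4 in RAD (4.92% and 1.99%). Rising between 7 and 20 h with no call in the other intervals was the commonest course in MCE, with 19 genes. That interval spans 16 h, the time that set the score of 55 genes, so the choice favours a rise in MCE there. For 51 genes MCE at 16 h was above MCE at 3 h by at least 1.

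At testa rupture 21 genes rose and 4 fell in MCE, against 2.83% and 0.54% of all loci. In RAD 13 rose and 2 fell (1.44% and 0.577%). XTH24, AGP2, EXLA1 and AT5G39580 led the rises in MCE, and ST2A, RL6, AT2G28490 and AT3G14060 were the 4 that fell. Without replicate 1 of MCE at 25 h with intact testa, the array that correlated best with MCE at 20 h, 19 rose and 5 fell. The rises of the leading genes were then 4.78 for XTH24, 5.21 for AGP2, 3.07 for EXLA1 and 2.90 for AT5G39580. At endosperm rupture 8 rose and 6 fell in MCE (0.99% and 0.328%), and 8 rose and 0 fell in RAD (1.78% and 0.136%). At an unadjusted p under 0.05 in limma 2 of the 80 fell in RAD, and with an adjusted p alone 1 did. The rises in MCE included PSK4, TI1, WRKY8 and AT1G80450, and the falls TMO7, GH3.5, AGP31 and AT5G11420.

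The change in MCE was also tested against the change in RAD. From 1 to 7 h it was more positive in MCE for 13 genes and more negative for 9 (all loci 2.63% and 2.23%), and from 7 to 20 h for 34 and 14 (7.4% and 7.94%). Between 7 and 20 h the more positive count is again favoured by the choice. From 20 to 31 h the counts were 19 and 19 (6.5% and 7.55%), at testa rupture 12 and 3 (1.53% and 0.633%) and at endosperm rupture 7 and 10 (0.554% and 1.43%). The 3 at testa rupture became 5 without replicate 1 of MCE at 25 h with intact testa.

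The cotyledons were compared with RAD at 3 stages. COT exceeded RAD for 10 genes and was below it for 8 at 3 h (all loci 1.85% and 2.86%). With scaled arrays the median of all loci in that comparison moved from 0.02 to 0.13, and the share of called loci that were higher from 39.3% to 52.0%. At 16 h COT was higher for 8 and lower for 30 (6.12% and 5.11%), and at 31 h for 6 and 26 (8.3% and 7.14%). At 31 h 52 genes were higher in MCE than in COT and 1, AT1G22890, was lower (15.1% and 18%); AT1G22890 measured 7.63, 7.81, 7.36 and 7.51 in COT and 5.68, 5.66, 5.96 and 5.19 in MCE. Compared with the dry seed, 21 genes were higher and 2 lower in MCE at 1 h (1.81% and 1.54%), the 2 being BGLU30 and JAZ10. In RAD at 1 h 6 were higher and 10 lower (1.54% and 1.67%), and the 6 became 3 without RAD replicate 4. Dry seeds were whole, so a difference from MCE or RAD also holds that between the whole seed and its part.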

How the data were processed

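The authors deposited 1 table of log2 expression values, with 21313 loci for the arrays of 28 groups. Per the submitters' processing notes the deposited log2 values come from RMA in the package affy, whose versions, probe definition and genome build are not given in the sources used here; positions and sequences are therefore not printed. Each array was assigned by its title. The source name of 3 MCE arrays (replicate 2 at 16 h, 20 h and 25 h with intact testa) names another stage, and 6 arrays are described as redone; all were kept. Whether replicates were separate seed batches is not given, so each p-value sets a difference only against a spread of arrays that may be technical. That spread is estimated per locus over all 28 groups, not from the compared groups alone, and the number of arrays limits the precision.

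One mean per group was fitted to all arrays with limma 3.58.1 in R 4.3.3, and 31 comparisons were tested two-sided with Benjamini-Hochberg adjustment over all loci within each. The fit was first tested on simulated data with known changes. No comparison uses a mean of MCE or PE at 3 or 16 h, although those arrays enter the shared estimate of spread. A gene was called at an adjusted p under 0.05 and a log2 difference of 1 or more in either direction. Differences are given ± SE and group levels ± SD.

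The 80 genes and the gene lists were chosen with earlier results of these data known. Names came from the 20 highest scores, genes in a list, the 5 on either side of the limit, and counts of 5 or fewer. Each comparison added up to 4 called genes per direction whose replicates do not overlap, a condition not set for means and interactions. Not all of these genes are described above. AT2G42660 and AT3G05150, of the 20 highest scores, and some genes of the comparisons, such as AT5G35735, are not. Other names are marked as chosen after their values were seen. Symbols follow RefSeq, which held 21205 of the loci. Of 517 measured list loci, 11 were among the 80. The lists of alpha-expansins, pectin and cellulose, GASA, gibberellin, touch and stress, lipid transfer, cell death, storage and LEA proteins, and phenylpropanoids and peroxidases held 0 of the 80, as did the endosperm, cotyledon and seed coat markers. These lists are incomplete, so 0 does not mean that no such gene was among the 80. PME12, for example, was not counted under pectin and cellulose. No match was found for 6 of 47 entries in that list and for 11 of 53 under phenylpropanoids and peroxidases.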

Additional observations from a re-analysis of the deposited data

Results flagged for a closer look

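The change in MCE differed from the change in RAD, by the interaction in limma, for genes described above, with values given as MCE's change less that of RAD in log2 units (estimate ± SE). From 1 to 7 h the largest gap among these was that of AT5G39580, 5.04 ± 0.45 (adjusted p = 3.57e-16). CWINV1 followed with 3.83 ± 0.31 (adjusted p = 3.37e-18). HK5 fell in MCE over the same hours, with -3.49 ± 0.24 (adjusted p = 3.55e-22), and FAD3 rose earlier in RAD, with -3.41 ± 0.45 (adjusted p = 2.76e-09). From 7 to 20 h GulLO5 had 4.99 ± 0.26 (adjusted p = 1.03e-30), CYP79B2 3.87 ± 0.41 (adjusted p = 7.21e-14) and STP13 -2.96 ± 0.27 (adjusted p = 5.25e-17).

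From 20 to 31 h the interaction of XTH24 was 6.45 ± 0.31 (adjusted p = 1.12e-33), that of AGP2 4.86 ± 0.37 (adjusted p = 7.64e-21) and that of STP13 4.28 ± 0.27 (adjusted p = 6.68e-26). TMO7, which rose in RAD, had -2.84 ± 0.25 (adjusted p = 2.65e-17), and CYP79B2 -2.74 ± 0.41 (adjusted p = 1.84e-08). At testa rupture AGP2 rose more in MCE, by 3.02 ± 0.37 (adjusted p = 3.89e-10), as did PSK4, by 2.82 ± 0.28 (adjusted p = 5.21e-14), and XTH24, by 2.66 ± 0.31 (adjusted p = 5.48e-11). CWINV1 rose more in RAD, with -2.23 ± 0.31 (adjusted p = 3.59e-08). At endosperm rupture PSK4 had 1.92 ± 0.28 (adjusted p = 9.74e-08) and TMO7 -2.05 ± 0.25 (adjusted p = 4.28e-10).

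Of 122 sets of 4 arrays whose values are given above or in the plot of mean levels, 7 held an array far from the other 3, and chance gives about 1 in 20. In the mean level of the 80 genes these were MCE at 25 h with intact testa replicate 1, at 6.97, RAD at 25 h with ruptured testa replicate 4, at 5.96, and RAD at 3 h replicate 2, at 4.70. The first of these arrays was also far from the others for EXLA1, at 5.79, and for XTH24, at 3.62. It was 1 of 6 arrays that the labels describe as redone. For XTH24 in RAD at 25 h with intact testa replicate 1 stood apart, at 4.39, and for AGP31 in MCE at 7 h replicate 4, at 3.77.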

How the results depend on the processing

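Counts of called genes were compared with those under repeated quantile normalization, an added scaling, array weights, an intensity trend, a filter on dim loci, fits of only the groups compared, a replicate block, fits without the redone arrays or without those whose labels differ, no minimum fold, and each array left out. Of 620 counts under the alternatives that left out no single array, 27 moved by over 1.5 times. With no minimum fold, an adjusted p alone gave these counts lower in MCE than RAD: 8 at 1 h, 13 at 7 h, 14 at 20 h, 10 and 8 at 25 h with intact and ruptured testa, 12 at 31 h and 16 in the mean. Within MCE it gave 34 rises and 17 falls from 1 to 7 h, 23 falls from 20 to 31 h, 32 rises and 13 falls at testa rupture and 11 falls at endosperm rupture. Within RAD it gave 13 falls from 1 to 7 h, 10 from 7 to 20 h and 9 from 20 to 31 h, and 18 rises and 1 fall at endosperm rupture. The interaction counts became 21 and 16 from 1 to 7 h, and 6 more negative at testa rupture. COT was higher than RAD for 13 genes at 16 h and 11 at 31 h, and above MCE for 3. In RAD at 1 h 10 genes were above and 20 below the dry seed. Without the redone arrays, 5 genes had a more negative interaction at testa rupture.

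With 1 array left out, 3 of 704 counts moved. The more negative interactions at testa rupture ranged from 2 (without MCE at 25 h with ruptured testa replicate 2) to 5, the genes lower in MCE than COT from 1 to 2 (without MCE at 31 h replicate 3) and those above the dry seed in RAD at 1 h from 3 (without RAD at 1 h replicate 4) to 6. Of 1077 calls on single genes, 82 were lost without at least 1 array and 0 changed sign. The lead of TPPF over RAD at 7 h is of this kind, as are the rises of FAD3 and XTH19 above the dry seed in RAD at 1 h.

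The rule kept 68 genes after repeated quantile normalization and 73 after scaling, 63 with the mean of both differences as the score and 32 with the lower one. Without 1 array it kept 68 to 75. The mean level moved by more than 1 SD in 4 groups after quantile normalization: to 4.63 in COT at 3 h, 4.76 in dry seed, 5.35 in MCE at 1 h and 7.84 in MCE at 25 h with ruptured testa. After scaling it was 4.76 in COT at 3 h, 4.84 in dry seed and 4.87 in PE at 3 h. In MCE scaling gave 5.40 at 1 h, 5.65 at 7 h, and 7.66 and 7.76 at 38 h with intact and ruptured endosperm. In RAD it gave 4.88 at 7 h, 5.50 at 16 h, 5.49 at 20 h, 5.53 and 5.90 at 25 h and 6.15 and 6.45 at 38 h. The cause of these moves was not tested.

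Replicate numbers are shared between groups in the labels. No comparison of 19 had every same-numbered pair correlated above 0.1, with pair correlations from -0.23 to 0.35, so the numbers were not taken to pair the samples. With the replicate block, the genes higher and lower in MCE in the mean over the 9 stages numbered 44 and 5, and those that rose and fell at testa rupture 21 and 4. The block lost 0 calls on single genes.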
